A study of Homo sapiens with 5 samples.

Results

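The nuclear genes for the subunits and assembly factors of the mitochondrial respiratory chain and ATP synthase were followed in 5 libraries of SH-SY5Y cells, a human neuroblastoma line. Members were taken by their gene symbols: those beginning with NDUF, SDH, UQCR, COX or ATP5 in the forms used for the chain, and CYC1. Of 26364 symbols 107 matched, 3 of them pseudogenes that were left out (ATP5EP2, UQCRBP1 and NDUFAF4P1), which gave 104 members. They comprised 37 subunits of complex I, 4 of complex II, 9 of complex III, 11 of complex IV and 15 of ATP synthase, 19 assembly factors, and 9 alternative isoforms or near-identical copies. NDUFA4 carries a complex I symbol and was placed in complex IV, where its protein is known to sit.

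The groups were cells depleted of STAU1 with siRNA (siSTAU1), cells depleted of UPF1 (siUPF1), cells given a control siRNA (siControl), differentiated cells (Differentiation) and undifferentiated cells (Nondifferentiation). Each group was 1 library, so no difference has a replicate check and none was tested across samples. All 5 shared the same line and a medium with 10% serum and 1% antibiotics, and the labels list 50 µM retinoic acid for Differentiation and for Nondifferentiation alike. STAU1 binds double-stranded RNA in mRNAs and recruits UPF1, a helicase of mRNA decay, and the study asked which transcripts were higher after loss of either protein and after differentiation.

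The respiratory chain sits in the inner mitochondrial membrane. Complex I takes electrons from NADH and complex II from succinate, complex III passes them through cytochrome c to complex IV, which reduces oxygen, and the proton gradient built by complexes I, III and IV drives ATP synthase. Most subunits are encoded in the nucleus and a few in mitochondrial DNA, and assembly factors insert cofactors or hold intermediates without staying in the finished complex. Neurons are known for a high demand on this system.

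RNA was read at the 3' end of polyadenylated transcripts, so a value does not scale with transcript length, and values are deposited log2 expression values. Estimated depth was 15800000 reads in siSTAU1, 17900000 in siUPF1, 15400000 in siControl, 32300000 in Differentiation and 18600000 in Nondifferentiation. A gene was called measured where its mean over the 5 libraries reached 7.81 (log2), the median of all values other than 0, and 8306 genes did. STAU1 was lower by 1.52 on the log2 scale in siSTAU1 and UPF1 by 1.53 in siUPF1, each against siControl. PHOX2A, a transcription factor of noradrenergic neuroblastoma, lay between 12.77 and 13.65 (log2) in all 5 libraries. Other markers of that list of 9, of which 5 were measured, were lower in Differentiation than in Nondifferentiation, with log2 folds of -2.90 for ISL1, -2.31 for DBH, -0.86 for HAND2 and, below the floor, -3.23 for TH. MYCN was listed at 0 in Differentiation, CHGA stood at 8.46 there against 6.87 in Nondifferentiation and CHGB at 7.66 against 5.58, and DBH also differed between siControl and Nondifferentiation (-1.12). Summed levels of 6 epithelial markers were 9.21 in siSTAU1, 7.23 in siUPF1, 6.01 in siControl, 7.04 in Differentiation and 5.82 in Nondifferentiation (log2). In siSTAU1, siUPF1 and siControl KRT8 stood at 7.53, 4.23 and 2.49, and KRT18 at 7.56, 4.74 and 2.49. KRT19 stood at 6.98, 6.27 and 5.57 in the same order. ESR1 stood at 5.71 in siSTAU1 and 4.74 in siUPF1, and at 0 in siControl and Nondifferentiation. CDH1 stood at 5.21 in siSTAU1, and at 0 in siUPF1, siControl and Nondifferentiation. EPCAM was highest in siControl, at 2.49, with 2.26 in siSTAU1 and 0.26 in siUPF1. Summed levels of 6 hepatocyte markers were 7.07 in siSTAU1, 9.03 in siUPF1, 6.41 in siControl, 2.38 in Differentiation and 5.98 in Nondifferentiation, almost all from ALB, with APOA2, SERPINA1 and TTR at 0 in all 5. The 6 muscle markers summed to 3.63 to 5.25 and the 4 blood markers to 6.08 to 7.89, with PTPRC at 0 in all 5. None of these 22 markers reached the floor by its mean over the 5 libraries. In single libraries ALB stood above it at 9.02 in siUPF1 and HBB at 7.82 in Differentiation. The part of these markers in the results was not tested.

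Of the 104 members 88 were measured: 36 of 37 in complex I, 3 of 4 in complex II, all in complexes III and IV and ATP synthase, 13 of 19 assembly factors, and 1 of 9 isoforms or copies (UQCRHL). Their median level was 10.26 (log2), against 9.72 over all measured genes. The highest member was UQCRH, the hinge protein of complex III, at 15.08 in siSTAU1, 14.84 in siUPF1, 14.84 in siControl, 14.15 in Differentiation and 14.85 in Nondifferentiation. Differentiation was lowest and siSTAU1 highest. The highest members of the other classes, by mean level, were ATP5L (14.24), which encodes subunit g of ATP synthase, NDUFA5 (13.92) of complex I, SDHC (12.36), a membrane anchor of complex II, COX7A2 (11.88) of complex IV, and COX14 (11.22), a factor for the synthesis and early assembly of the complex IV subunit COX1. Reads of UQCRH and UQCRHL, of ATP5L and ATP5L2, of ATP5E and ATP5EP2, and of UQCRB and UQCRBP1 could be shared, since these copies are near-identical, so their values are uncertain.

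Below the floor lay 16 members. The isoforms of restricted tissues were absent or low: COX4I2, COX6A2 and COX7B2 were listed at 0 in all 5 libraries, and COX7A1 only in siSTAU1 was above 0, at 0.26. COX8C, a testis isoform, was listed at 1.26 in siSTAU1 and 1.77 in Nondifferentiation and at 0 elsewhere, and COX6B2 lay between 0 and 2.38. NDUFA4L2, a paralog of NDUFA4 known as a target of hypoxia-inducible factor, was higher than these: 6.18 in siSTAU1, 6.36 in siUPF1, 5.98 in siControl, 4.74 in Differentiation and 6.46 in Nondifferentiation (log2). Its Differentiation value lay below the range of the other 4 libraries. The other members below the floor were ATP5L2, ATP5S, COX10, NDUFA6, NDUFAF1, NDUFAF2, NDUFAF5, NDUFAF6 and SDHB. SDHB, the iron-sulfur subunit of complex II, stood near it, at 8.17 in siSTAU1, 7.79 in siUPF1, 7.76 in siControl, 6.85 in Differentiation and 7.81 in Nondifferentiation.

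In Differentiation the members lay low as a group, by moderate amounts. The median log2 fold over Nondifferentiation was -0.47 over the 88 measured members, against -0.02 over all measured genes, and 79 of 88 members were below 0, against 51.2% of all measured genes. Few members passed 2-fold: 4 were 2-fold lower, against 10.9% of all measured genes, and 0 were 2-fold higher, against 7.61%. At 1.5-fold 36 were lower, against 22.2% of all measured genes, and 1 was higher, against 18.5%. The share past 2-fold was thus under that of all genes, while the share below 0 and the share past 1.5-fold lower were over it. In a bulk library fewer cells of a type and less RNA per cell cannot be told apart.

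**Figure D1:**
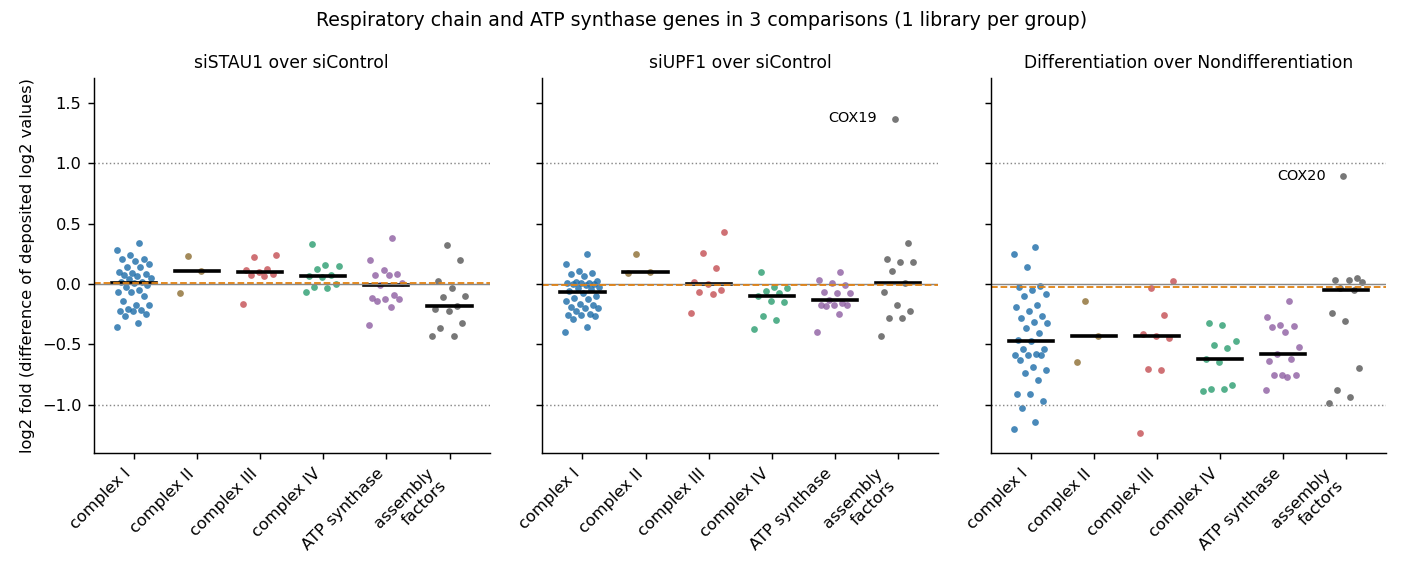
Log2 fold (y axis) of each measured member, by complex, in siSTAU1 over siControl, siUPF1 over siControl and Differentiation over Nondifferentiation; each point is 1 gene, black bars are class medians, the dashed line is the median of all measured genes and dotted lines mark 2-fold. In the Differentiation panel the 5 complexes have medians between -0.62 and -0.43 and the 13 assembly factors among the members -0.05. UQCRHL is not drawn.

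Complex I had a median log2 fold of -0.47 in Differentiation, and 33 of its 36 measured subunits were below 0. NDUFS6, an accessory subunit near the iron-sulfur clusters of the peripheral arm, was lowest: 10.05 in Differentiation against 11.25 in Nondifferentiation (log2), and 11.12 in siSTAU1, 11.09 in siUPF1 and 11.34 in siControl. The Differentiation value lay below all 4 others, and the log2 fold over Nondifferentiation was -1.20. NDUFAB1, the mitochondrial acyl carrier protein, which also serves fatty acid and lipoate synthesis, stood at 9.80 in Differentiation against 10.94 in Nondifferentiation, with 10.92 in siSTAU1, 10.86 in siUPF1 and 10.85 in siControl. The other 4 libraries lay within a range of 0.09, and the log2 fold was -1.14. NDUFA9, a subunit at the quinone site region, stood at 8.74 in Differentiation against 9.77 in Nondifferentiation, with 9.60 in siSTAU1, 9.39 in siUPF1 and 9.39 in siControl. Nondifferentiation was the highest of the 5 for NDUFA9, so its log2 fold of -1.03 was the only one of these 3 that came to less than 2-fold against siControl.

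The 7 core subunits encoded in the nucleus, which carry the flavin and the iron-sulfur clusters, had a median log2 fold of -0.32, and the 29 measured accessory subunits one of -0.47. Among the core subunits NDUFV2 was lowest (-0.97), just under the 2-fold threshold. The highest complex I member was NDUFB1, a small membrane-arm subunit, at 9.32 in Differentiation against 9.02 in Nondifferentiation, a log2 fold of 0.30. Its siControl value of 9.46 was higher than that of Differentiation, so the direction turned with the reference. NDUFA10, of the membrane arm, was the other accessory subunit above 0, at 9.73 in Differentiation against 9.49 in Nondifferentiation, and Differentiation was the highest of the 5 libraries by a small margin. NDUFA5, the most abundant, had 13.67 in Differentiation against 13.76 in Nondifferentiation and 14.26 in siControl.

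In complex II all 3 measured subunits were below 0, with a median of -0.43. SDHA, the flavoprotein that oxidises succinate, was lowest, at 8.67 in Differentiation against 9.31 in Nondifferentiation, and SDHC was nearest to 0, at 12.23 against 12.37. SDHB, below the floor, had a log2 fold of -0.96.

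In complex III 8 of 9 subunits were below 0 and the median was -0.43. UQCRC1, a core protein of the matrix side, had the lowest fold of all 88 measured members: 7.49 in Differentiation against 8.72 in Nondifferentiation, with 8.68 in siSTAU1, 8.81 in siUPF1 and 8.55 in siControl. Differentiation lay more than 1 log2 unit below every other library, and the log2 fold was -1.23 (95% counting interval of estimated reads, -1.44 to -1.01). UQCRC2, its partner core protein, did not share that place: it stood at 9.61 in Differentiation against 9.59 in Nondifferentiation, and Differentiation was the highest of the 5. UQCRH had a log2 fold of -0.70, and CYC1, the cytochrome c1 heme protein, one of -0.42, which was -0.15 over siControl.

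Complex IV had a median of -0.62, and all 11 of its subunits were below 0, from COX7A2 (-0.32) to COX5A (-0.89). COX5A, an early-assembling subunit, stood at 8.54 in Differentiation against 9.43 in Nondifferentiation, with 9.59 in siSTAU1, 9.29 in siUPF1 and 9.66 in siControl. Its Differentiation value lay under all 4 others. COX6A1, NDUFA4 and COX8A followed, at -0.87, -0.86 and -0.83. None of the 11 passed 2-fold, but COX5A did over siControl (-1.11).

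All 15 ATP synthase genes were below 0, with a median of -0.58. ATP5B, which encodes the catalytic beta subunit, was lowest, at 10.09 in Differentiation against 10.97 in Nondifferentiation, with 10.86 in siSTAU1, 10.72 in siUPF1 and 10.78 in siControl. ATP5A1, its alpha partner in the catalytic head, was nearest to 0, at 12.51 against 12.65. The 5 genes of the F1 head had a median of -0.40, the 3 genes for the rotating c-ring -0.62, and the 7 of the membrane part and outer stalk -0.63. The c-ring genes ATP5G1, ATP5G2 and ATP5G3 encode the same mature protein with different import peptides, and their folds were -0.77, -0.52 and -0.62, the last -0.29 over siControl.

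The 13 measured assembly factors had a median log2 fold of -0.05 and 8 were below 0, beside a median of -0.51 and 70 of 74 for subunits. They were 4 factors of complex I, 8 of complex IV and COX7A2L, placed here although it acts on supercomplexes (joined complexes). The log2 fold of COX7A2L, -0.05, was itself the median of the 13. Over siControl the factors had a median of -0.29 and 9 of 13 below 0. The 4 measured factors of complex I were all below 0 with a median of -0.81: NDUFAF4 at -0.98, ATP5SL at -0.93, NDUFAF3 at -0.69 and NDUFAF7 at -0.24. ATP5SL carries an ATP synthase symbol, but its protein is known to act on the membrane arm of complex I. The 8 measured factors of complex IV had a median of 0.02 and 5 were above 0, with folds from -0.88 to 0.89. With siControl in place of Nondifferentiation the medians were -0.60 for complex I factors and -0.19 for complex IV factors, of which 5 of 8 were then below 0. The median of -0.05 holds for factors taken by the symbol rule only. Assembly factors under other symbols, 25 of them measured, had a median of -0.37 over Nondifferentiation, with 21 below 0.

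COX20, a chaperone of the newly made COX2 subunit, was the highest member in Differentiation: 9.93 against 9.04 in Nondifferentiation, with 8.89 in siSTAU1, 9.05 in siUPF1 and 9.11 in siControl. The other 4 libraries lay close together and under Differentiation, and the log2 fold was 0.89 (95% counting interval 0.75 to 1.04). COX17, the copper chaperone that feeds complex IV, moved the other way, with 8.44 in Differentiation against 9.32 in Nondifferentiation, and 9.21 in siSTAU1, 9.15 in siUPF1 and 9.58 in siControl. COX11, which hands copper to COX1, COX15, which makes heme A, and COX18, which inserts COX2 into the membrane, had log2 folds of 0.05, 0.04 and 0.03. Over siControl these were 0.17, -0.16 and -0.29, so the direction of COX15 and COX18 turned with the reference.

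**Figure D2:**
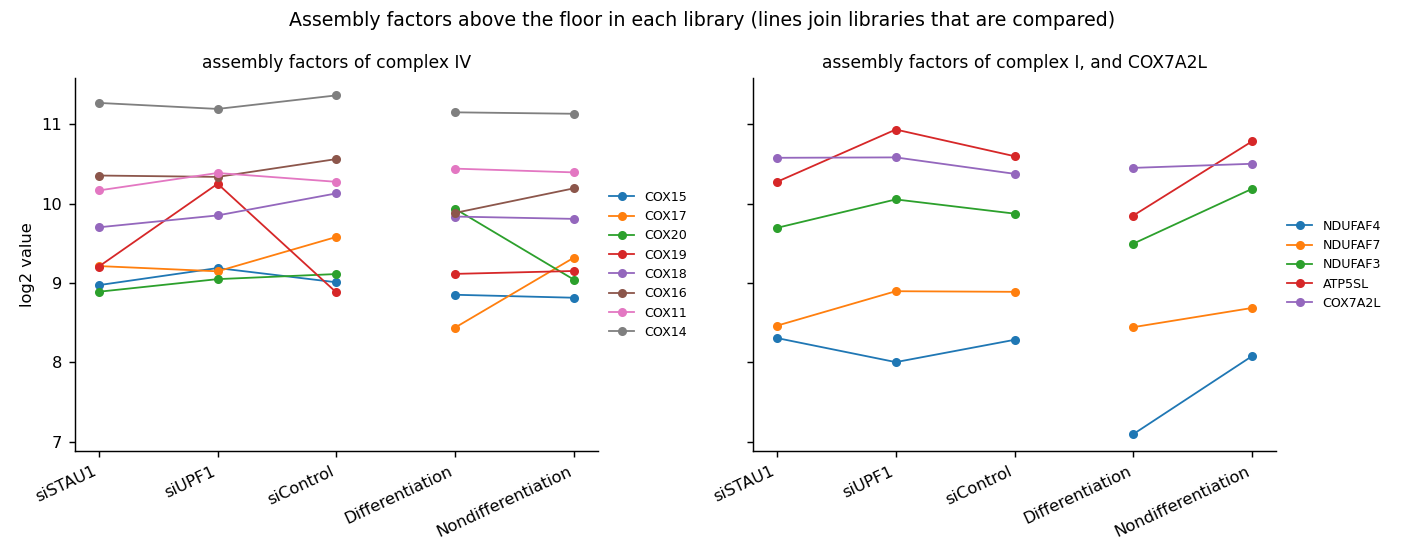
Log2 value (y axis) of each measured assembly factor in siSTAU1, siUPF1, siControl, Differentiation and Nondifferentiation, with complex IV factors on the left and complex I factors and COX7A2L on the right; lines join libraries that are compared. COX19 stands at 10.25 in siUPF1 and COX20 at 9.93 in Differentiation, each above its other 4 values.

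The place of Differentiation did not rest on Nondifferentiation alone. It was the lowest of the 5 libraries in 75 of 88 members, against 41.6% of all measured genes, and the highest in 4 members (COX11, COX20, NDUFA10 and UQCRC2), against 38.8%. Among the 74 measured subunits it was lowest in 68. In 54 members Differentiation lay below the other 4 libraries by more than their own range, against 26.8% of all measured genes; 51 of these were subunits. The other 4 libraries had a median range of 0.25 (log2) over the members. The median log2 fold of the members was -0.52 over siControl, -0.49 over siSTAU1 and -0.47 over siUPF1, and these comparisons share the Differentiation library.

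**Figure D3:**
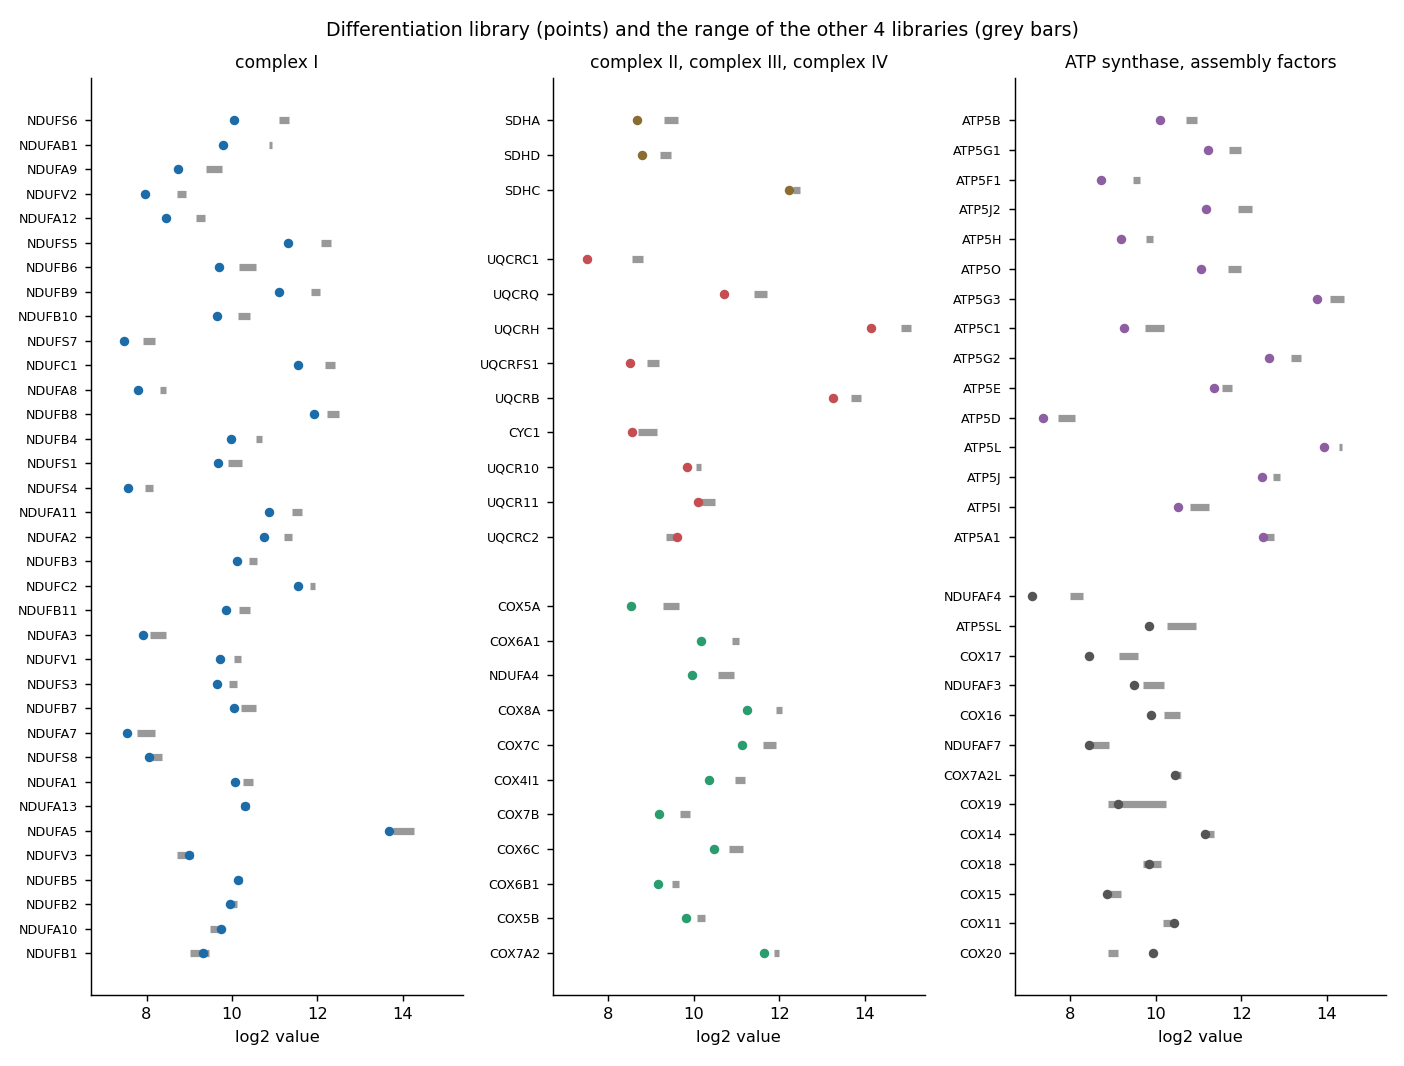
Log2 value (x axis) of each measured member in Differentiation (points) beside the range of siSTAU1, siUPF1, siControl and Nondifferentiation (grey bars), grouped by complex and ordered within each by log2 fold over Nondifferentiation. Differentiation was the lowest library in 75 of 88 members; UQCRHL, 1 of the 75, and 1 other member are not drawn.

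The siControl and Nondifferentiation libraries, both without a knockdown or differentiation, give a measure of how far these genes stood apart between references. Members had a median log2 fold of 0.06 in siControl over Nondifferentiation, with 53 above 0 (50.7% of all measured genes) and 35 below it (49.0%). Of the members 0 passed 2-fold either way, against 0.144% higher and 0.433% lower of all measured genes. NDUFA5 had the widest gap upward, at 14.26 in siControl against 13.76 in Nondifferentiation.

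Sequence near the transcription start was compared for motifs of 2 factors known to serve these genes: NRF1 (searched as GCGCA, any base, then GCGC) and the ETS factor GABP (searched as CCGGAAG), on both strands, in RefSeq windows (GRCh38.p14) from 250 bases before to 50 after each start. Of the members 103 matched RefSeq and 83 had at least 1 window, 104 windows in all. The NRF1 motif was in 20 windows (19.2%), against 11.0% of windows of measured genes and 5.78% of all windows. The ETS motif was in 27 windows (26.0%), against 18.1% and 10.3%, and either motif was in 41.3%, against 26.9% and 14.9%; windows with both count once. The motifs were unevenly spread: 4 of 7 windows of complex III held the NRF1 motif, and 0 of 10 of complex IV did, where 5 held the ETS motif. The 150 bases before the start are shown for the lowest member in Differentiation, a complex IV subunit with an ETS match, the lowest complex I member and the highest member; capitals mark the motif match, and NDUFS6 has none.
UQCRC1, chr3:48609647-48609796, - strand: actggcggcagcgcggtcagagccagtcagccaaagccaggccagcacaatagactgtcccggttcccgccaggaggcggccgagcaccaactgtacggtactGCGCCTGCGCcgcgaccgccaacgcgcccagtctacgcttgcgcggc
COX6A1, chr12:120437963-120438112, + strand: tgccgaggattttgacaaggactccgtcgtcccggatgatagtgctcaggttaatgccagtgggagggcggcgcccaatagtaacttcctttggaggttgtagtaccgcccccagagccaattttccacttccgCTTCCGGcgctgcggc
NDUFS6, chr5:1801257-1801406, + strand: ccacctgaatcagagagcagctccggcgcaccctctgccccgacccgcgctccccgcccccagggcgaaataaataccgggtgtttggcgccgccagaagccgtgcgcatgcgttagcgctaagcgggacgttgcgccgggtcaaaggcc
COX20, chr1:244835156-244835305, + strand: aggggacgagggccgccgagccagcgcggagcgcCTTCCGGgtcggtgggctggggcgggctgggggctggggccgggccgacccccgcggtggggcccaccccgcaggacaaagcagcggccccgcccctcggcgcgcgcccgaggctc
The capitals in UQCRC1 are an NRF1 match whose first base lies 47 bases before the start. Those in COX6A1 and COX20 are ETS matches on the reverse strand, 16 and 116 bases before the start, the second in 1 of the 3 windows of COX20. In Differentiation the 17 measured members with the NRF1 motif had a median log2 fold of -0.58 and the 55 without it -0.46, while the 23 with the ETS motif had -0.35 and the 49 without it -0.53. Only exact matches to the searched letters were counted, so a motif that differs by a base, in NDUFS6 or elsewhere, was not marked. A relation of either motif to the folds was not tested.

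After STAU1 depletion the members stayed near their control values. The median log2 fold of siSTAU1 over siControl was 0.01 over the 88 members, as over all measured genes. None passed 2-fold, against 0.0482% of all measured genes higher and 0.0602% lower, and none passed 1.5-fold, against 0.879% higher and 1.13% lower. Folds ran from -0.43 to 0.38, with 47 above 0, against 50.9% of all measured genes, and 40 below it, against 48.7%. The highest was ATP5C1, the gamma subunit that turns inside the ATP synthase head, at 10.21 in siSTAU1 and 9.82 in siControl, with 9.75 in siUPF1 and 9.85 in Nondifferentiation. siSTAU1 was the highest of the 5 for ATP5C1. The lowest was COX18, at 9.70 in siSTAU1 against 10.13 in siControl. Nondifferentiation stood at 9.81, so siControl was the library that lay apart for COX18.

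By complex, medians in siSTAU1 over siControl were 0.01 for complex I, 0.11 for complex II, 0.10 for complex III, 0.07 for complex IV, -0.01 for ATP synthase and -0.18 for assembly factors. NDUFB7 was highest in complex I (0.34) and NDUFA5 lowest (-0.36, but 0.14 over Nondifferentiation). In complex III 8 of 9 were above 0, led by UQCRH (0.24), with UQCRB, a quinone-binding protein, below 0 (-0.17, but 0.05 over Nondifferentiation). Over Nondifferentiation 6 of the 9 complex III genes were above 0. In complex IV NDUFA4 was highest (0.33, and 0.14 over Nondifferentiation). ATP5I, subunit e of ATP synthase, was lowest in that complex (-0.34), and 0.12 when set over Nondifferentiation instead. Of the assembly factors 10 of 13 were below 0 over siControl and 7 of 13 over Nondifferentiation.

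After UPF1 depletion 1 member passed 2-fold. COX19, a small intermembrane-space protein needed for copper supply to complex IV, stood at 10.25 in siUPF1 and 8.88 in siControl, with 9.21 in siSTAU1, 9.12 in Differentiation and 9.15 in Nondifferentiation (log2). siUPF1 lay above every other library, and the others lay within 0.33 of each other. The log2 fold was 1.37, or 2.58-fold higher, from an estimated 1115 reads in siUPF1 and 373.1 in siControl (95% counting interval 1.20 to 1.54), and it was 1.10 over Nondifferentiation. Of all measured genes 0.301% were 2-fold higher and 0.0602% 2-fold lower, and 0 members were 2-fold lower. At 1.5-fold COX19 was also the 1 member higher, against 2.71% of all measured genes, and 0 were lower, against 1.22%.

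The other members lay near siControl in siUPF1: the median log2 fold was -0.07, against -0.01 over all measured genes, and 56 of 88 were below 0, against 51.5%. CYC1 was the highest subunit, at 9.14 in siUPF1 and 8.70 in siControl, with 8.97 in Nondifferentiation. The lowest were COX17, at 9.15 in siUPF1 against 9.58 in siControl, and ATP5I and NDUFB1, at -0.40 each. For these 3 genes siControl was the highest of the 5 libraries. Medians were -0.07 for complex I, 0.10 for complex II, 0.00 for complex III, -0.10 for complex IV, -0.13 for ATP synthase and 0.01 for assembly factors. Of complex IV 10 of 11 were below 0, with COX5A lowest (-0.37) and COX8A alone above 0 (0.10), while over Nondifferentiation COX8A was below 0 (-0.05) and COX4I1 alone above it (0.03). In ATP synthase the 12 genes of the head, membrane part and stalk were below 0 and the 3 c-ring genes above it, led by ATP5G3 (0.10). That contrast turned with the reference: over Nondifferentiation the c-ring median was -0.23, with ATP5G3 at -0.23, and that of the membrane part and stalk was 0.04.

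**Figure D4:**
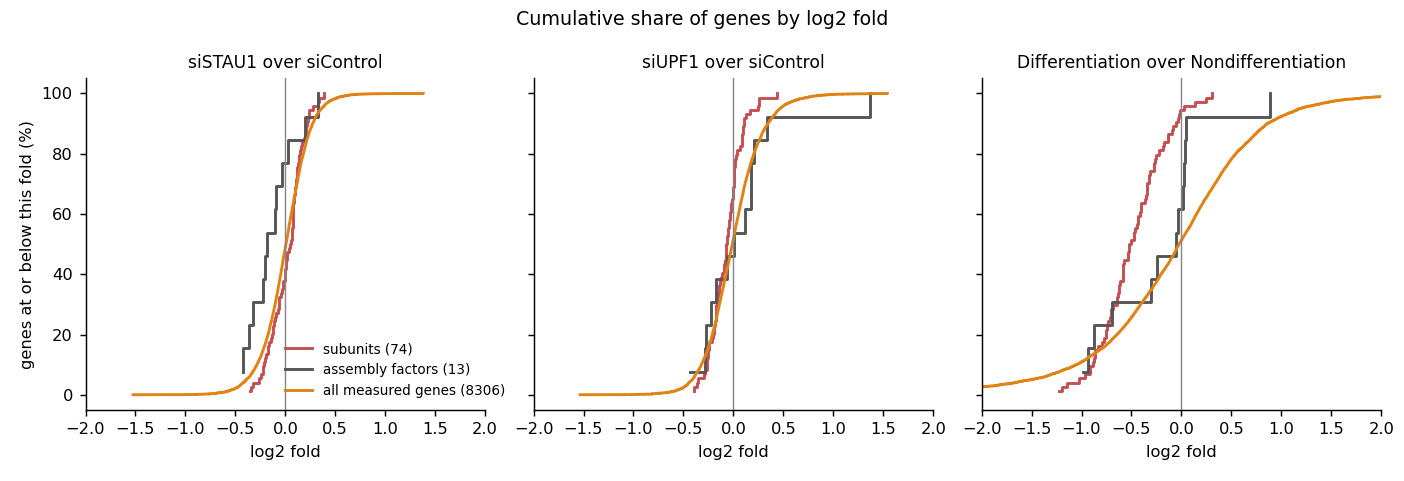
Cumulative share of genes (y axis, percent) at or below each log2 fold (x axis, drawn from -2 to 2) for 74 subunits, 13 assembly factors and all 8306 measured genes in the 3 comparisons. The subunit curve lies left of all genes in Differentiation, with a median of -0.51 against -0.02, and near it in siSTAU1 and siUPF1.

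The study's question of transcripts higher after both depletions and differentiation had 1 member with a log2 fold above 0 in all 3 comparisons, NDUFA10, against 17.6% of all measured genes. Its folds were 0.08 in siSTAU1, 0.11 in siUPF1 and 0.25 in Differentiation, none past 1.5-fold. COX19 was 1.37 in siUPF1, 0.33 in siSTAU1 and -0.04 in Differentiation, and COX20, the highest in Differentiation, was -0.06 in siUPF1 and -0.22 in siSTAU1.

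Other genes of oxidative metabolism were read from fixed lists. Of the chain genes under other symbols, CYCS, ATPIF1, USMG5 and C14orf2 were all below 0 in Differentiation (median -0.83), and CYCS, which encodes cytochrome c, was 9.77 in Differentiation against 11.05 in Nondifferentiation (log2). In siSTAU1 and siUPF1 the CYCS log2 folds were -0.13 and -0.30. Of the 17 symbols on this list 4 had values. Transcripts of mitochondrial DNA, listed under symbols beginning with MT-, had none and could not be analysed.

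Of 31 further assembly factors 25 were measured, with a median log2 fold of -0.37 in Differentiation. Of the 25, 3 were 2-fold lower, near the 10.9% of all measured genes: COA6 (-1.83), COA1 (-1.51) and COA4 (-1.13), all factors of complex IV assembly. SCO2, a copper chaperone of the same complex, was highest (0.67, and 1.02 over siControl). Of the 25 factors 21 were below 0. Of 12 regulators 9 were measured with a median of -0.56. Of the 9, 1 was 2-fold lower, also near 10.9%: GABPB1, the beta partner of the ETS factor GABPA (-1.14). GABPA itself was highest (0.74). Over siControl GABPB1 came to -0.93, under 2-fold, and GABPA to 0.09, since GABPA was itself 0.65 higher in siControl than in Nondifferentiation. In siUPF1 PPRC1, a coactivator of the PGC-1 family, was lowest of the regulators (-0.80, and -0.32 over Nondifferentiation). In siSTAU1 TFB2M, a mitochondrial transcription factor, was highest (0.53, and 0.32 over Nondifferentiation).

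The citric acid cycle had 10 of 13 genes measured and a median of -0.30 in Differentiation, from MDH2 (-0.86) to OGDH (0.24, and 0.73 over siControl). None passed 2-fold, against 10.9% lower and 7.61% higher of all measured genes. Genes of pyruvate entry spread widest, with 12 of 14 measured and a median of -0.34. LDHA, which turns pyruvate to lactate, was at 10.13 in Differentiation against 13.30 in Nondifferentiation, and PDK1, a kinase that blocks pyruvate dehydrogenase, at 7.77 against 10.58. LDHB (-1.49) and MPC1, a mitochondrial pyruvate carrier subunit (-1.30), were also 2-fold lower, and PDK2 was 2-fold higher (1.06). Thus 4 of 12 were 2-fold lower and 1 higher, against 10.9% and 7.61% of all measured genes. Over siControl MPC1 and PDK2 came to less than 2-fold, at -0.91 and 0.79. PDK1 was 2-fold lower in siUPF1 as well, at 9.28 against 10.30 in siControl. In siSTAU1 the lowest of this list was PDHX (-0.56, and -0.25 over Nondifferentiation), a structural protein of pyruvate dehydrogenase. LDHA and PDK2 were level with it at -0.56 each, and at -0.55 and -0.28 over Nondifferentiation. LDHA in siUPF1 had -0.85, and -0.84 over Nondifferentiation. Of the 12 genes 9 were below 0 in siSTAU1 and 10 in siUPF1, against 48.7% and 51.5% of all measured genes.

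**Figure D5:**
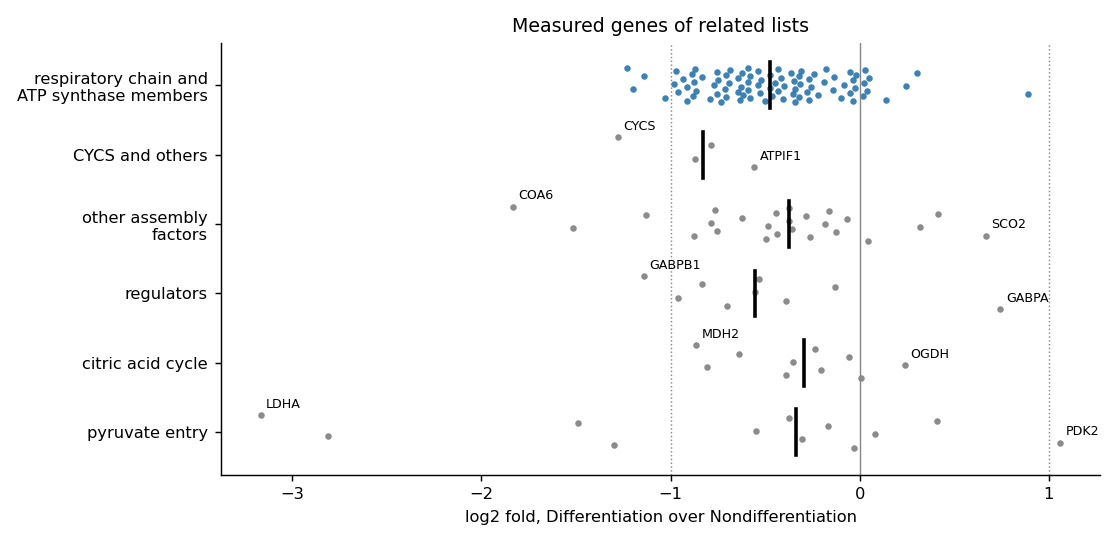
Log2 fold in Differentiation over Nondifferentiation (x axis) of each measured member and of the measured genes of 5 related lists (rows); each point is 1 gene, black bars are medians, dotted lines mark 2-fold, and the lowest and highest gene of each related list is named. The members have a median of -0.47 and pyruvate entry spreads from LDHA at -3.17 to PDK2 at 1.06.

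A lower place in Differentiation was also measured in gene families outside the chain. Of 66 measured mitochondrial ribosomal protein genes 64 were below 0 with a median log2 fold of -0.65, and of 82 cytosolic ones 82 were below 0 with a median of -0.62. A median well below 0 was thus not particular to the respiratory chain. Member transcripts were also short, with a median length of 1407 nt against 3567 nt over all measured genes with a length (longest protein-coding transcript in GENCODE). Among the 2006 shortest genes (177 to 2255 nt) the median log2 fold in Differentiation was -0.28, and 65.2% were below 0. The 61 members in that class had a median of -0.58 with 58 below 0. Over all measured genes with a length (8024) Spearman's rho of length with the Differentiation fold was 0.22, a correlation across genes of 1 pair of libraries. The part of length in the members' shift was not tested.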

How the data were processed

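RNA of 5 SH-SY5Y libraries, 1 per group, was extracted with Trizol and 500 ng of it entered a Lexogen QuantSeq kit, per the labels' protocols. The deposited log2 values, 1 per symbol and library, had the same highest value of 18.01 in each library, and in linear form 100% of values other than 0 were multiples of 1/5; this is the pattern of quantile normalization by the authors, inferred from the values, which removes library-wide differences. The submitters' processing notes name Bowtie2, edgeR and hg19. The way reads were counted, the gene models and the use of strand were not given in the sources used here, so antisense and readthrough symbols may share reads with members.

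Groups came from the sample titles. Log2 folds are differences of deposited values, computed with pandas 2.3.3 and numpy 2.4.6. Depth came from spacing among the 50 lowest distinct values, and 95% intervals cover counting error only (median half-width over measured members 0.12 for siSTAU1, 0.12 for siUPF1 and 0.11 for Differentiation). No test was run, there being 1 library per group; called means past 2-fold, with 1.5-fold beside it. The rule for named members took those past 2-fold, the highest and lowest fold of each class and comparison, the highest level of each class and the restricted isoforms; others were named with their values known. Other floors, centring, a pseudocount of 10 linear units and other references were tried. The computations were tested on simulated data. The values of 1 member are not reported here. Members and lists were chosen with earlier results of these data known.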

Additional observations from a re-analysis of the deposited data

How the results depend on the processing

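The count of members past 2-fold in Differentiation over Nondifferentiation was 4 in the report. It was 8 with no floor, 2 with the floor at the upper quartile and 8 with siControl as the reference. It was 7 with siSTAU1 as the reference (1 higher and 6 lower) and 5 with siUPF1 (0 higher). These references were chosen after seeing the data. At 1.5-fold the count was 37 (1 higher and 36 lower). With siControl as the reference all 8 were lower, beside 1008 of 8306 measured genes 2-fold lower and 731 higher. At 1.5-fold 22.2% of all measured genes were lower and 18.5% higher. Shares over all genes are not given for the other alternatives, so those counts cannot be placed above or below the share of all genes. In siUPF1 the count of members past 2-fold was 1, and 0 with the floor at the upper quartile, which COX19 does not reach. In siSTAU1 it was 0 under every alternative run. Medians over the members kept their sign under every alternative run: 0.01 to 0.06 in siSTAU1, -0.07 to -0.01 in siUPF1 and -0.52 to -0.45 in Differentiation. Of 31 measured named members, 21 in Differentiation, 20 in siSTAU1 and 20 in siUPF1 moved by more than their counting half-width on exchange of the reference library. None moved with centring or with the pseudocount, the other alternatives run for named members. No paired analysis was possible because each group has 1 library, and for the same reason no replicate could be left out. Depth limits a log2 fold to a counting half-width of at most 0.27 for measured members, and more for some below the floor, and the spread between cultures is unknown.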
